A study of Mus musculus with 10 samples.

Results

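The FOXO factors are forkhead transcription factors held in the cytoplasm when AKT, the kinase below PI3K, phosphorylates them. When AKT signalling is low they enter the nucleus and switch on genes that restrain growth, slow the cell cycle and direct lymphocyte traffic. mTOR meets this pathway at several points: mTOR complex 2 activates AKT, and mTOR complex 1, the target of rapamycin, feeds back on insulin receptor substrates. FOXO activity is set largely by the location of the protein, which transcript levels do not measure. The genes described here are 10 in number: the factors Foxo1, Foxo3 and Foxo4, and Klf2, Il7r, Cdkn1b, Ccng2, Irs2, Pik3ip1 and Txnip, genes known as FOXO targets. They were taken by name, and all 10 were among the 22180 genes measured by a probe set carrying a single gene symbol. Of 23521 such probe sets 11 belonged to them, since Foxo1 had 2. The brightest probe set stands for each gene.

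Levels were read on 10 Affymetrix arrays, each hybridised with RNA from bone marrow plasma cells sorted as B220-negative and Blimp1-positive. All the mice, controls included, were B6.BLIMP1 +/GFP, with a GFP reporter at 1 allele of the plasma cell regulator Blimp1. In all, 5 arrays were from untreated and 5 from rapamycin-treated mice. The labels number the replicates without saying that each was a separate mouse, so p-values measure the spread between these samples, which may be technical. The labels state no dose, length of treatment, age or sex. Values are log2 intensities after RMA, so that 1 unit is a doubling, and group values are mean ± SD over 5 arrays.

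Array medians lay between 4.92 and 4.99. All 10 measured plasma cell markers had means above every array median, with Xbp1 at 12.25 ± 0.02, Jchain at 13.40 ± 0.04 and Sdc1 at 10.01 ± 0.11 in untreated arrays. Markers of other cells were also measured above the highest array median, among them 8 of 11 mature B cell, 9 of 13 T cell and 14 of 14 neutrophil markers. The defining T cell genes Cd3e and Cd3d were at 4.89 ± 0.15 and 4.74 ± 0.19 in untreated arrays and the B cell factor gene Pax5 at 4.98 ± 0.07, near the array medians, but the B cell gene Ms4a1 was at 7.70 ± 0.31 and the neutrophil gene S100a8 at 8.11 ± 0.35. The mature B cell markers averaged 6.50 to 6.73 on untreated and 6.48 to 6.66 on rapamycin arrays, the T cell markers 5.34 to 5.52 and 5.32 to 5.57, and the neutrophil markers 6.10 to 6.70 and 6.51 to 6.92. Without adjustment 5 neutrophil markers were higher with rapamycin and 0 lower, and 3 of the 10 plasma cell markers were higher and 0 lower. Of the 11 mature B cell markers 2 were higher and 3 lower, with 7 of the differences below 0. Of the 13 T cell markers 1 was higher and 0 lower. Over all genes 6.13% were higher and 3.26% lower in this way. Prdm1, which encodes Blimp1, was higher by 0.41 without overlap between the groups, as 2.06% of all genes were in either direction. No marker of these cell types passed after adjustment, and their part in the results was not tested. Rapamycin replicate 4 stood apart, with a first principal component score of 22.3 against at most 8.85 on the other rapamycin arrays. This component also parted the groups, with untreated arrays from -15.4 to -1.16 and rapamycin arrays from 4.17 upwards. The score of -1.16 was that of untreated replicate 1, and the next untreated array was at -8.09. Xist was at 3.83 ± 0.10 on untreated and 9.24 ± 0.28 on rapamycin arrays, while the Y-linked Eif2s3y was at 8.03 ± 0.46 and 3.84 ± 0.24, so that treatment and sex cannot be told apart in any comparison below. In these sorted pools, a change in the share of cells of a type and a change of RNA per cell cannot be told apart either.

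With rapamycin, none of the 10 genes passed the test. With limma and Benjamini-Hochberg adjustment over all genes (threshold 0.05), 0 of 10 were higher and 0 lower, where 0.126% of all genes were higher and 0.0271% lower. Those calls include Xist among the higher genes and the Y-linked Eif2s3y, Kdm5d and Uty among the lower. Without adjustment, at the same threshold, 0 of the 10 were higher and 1, Irs2, was lower. Over all genes these shares were 6.13% and 3.26%. The log2 differences of the 10 genes, rapamycin minus untreated, ran from -0.28 for Irs2 to 0.17 for Pik3ip1 with a median of 0.03, beside a median of 0.01 over all genes. The 95% intervals lay within a log2 difference of 0.5 in either direction for 9 of the 10 genes, all but Irs2, and within 1, a doubling or halving, for all 10. A miss of the threshold does not show that a level was the same, and the intervals give the sizes that these arrays leave possible.

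**Figure D1:**
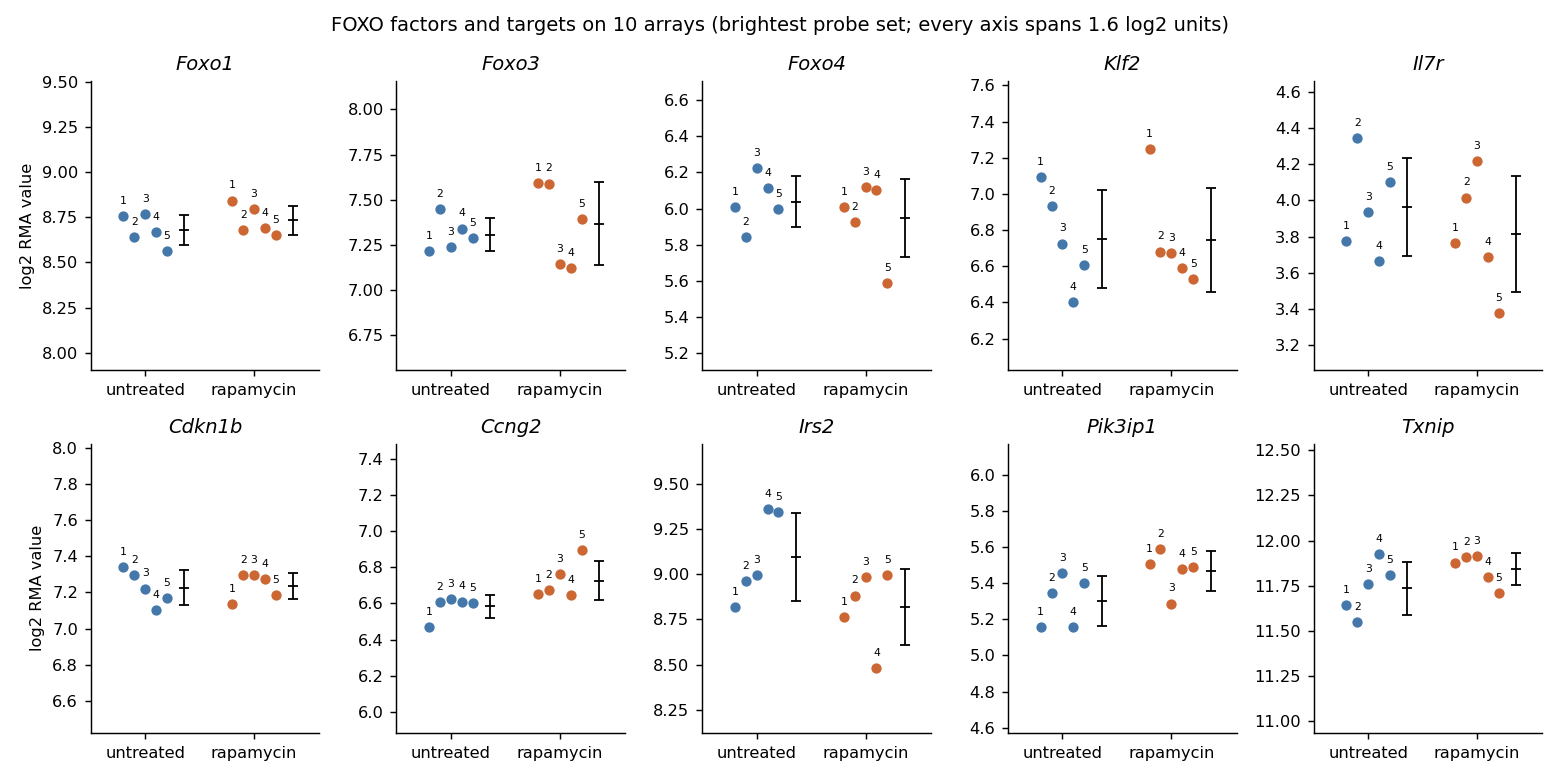
Log2 RMA values of the 10 genes on each array, with untreated arrays in blue and rapamycin arrays in orange. Digits are replicate numbers, the bars are mean ± SD of 5 arrays, and every axis spans the same range; only Ccng2 has groups that do not overlap.

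The groups overlapped for all 3 factors, and their mean log2 differences were at most 0.09 in size. Foxo1, the FOXO factor best known for directing B and T cell development, was at 8.76, 8.64, 8.77, 8.67 and 8.56 in untreated replicates 1 to 5 and at 8.84, 8.68, 8.79, 8.69 and 8.65 in rapamycin replicates 1 to 5. The ranges of the groups overlapped widely. The means were 8.68 ± 0.09 and 8.73 ± 0.08, a difference of 0.05 (95% interval -0.11 to 0.21, adjusted p = 0.899 in limma). As a fold this interval runs from 0.927 to 1.16, the second narrowest among the 10 genes after Txnip. The difference ran from 0.02 without untreated replicate 5 to 0.10 with the mean of both probe sets, and was also 0.02 to 0.03 without rapamycin replicate 1 and with quantile normalization over genes.

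Foxo3, a factor tied to stress resistance and cell death, was at 7.22, 7.45, 7.24, 7.34 and 7.29 in untreated arrays and at 7.59, 7.59, 7.14, 7.12 and 7.39 in rapamycin arrays. The rapamycin arrays held both the 2 highest and the 2 lowest values of all 10, so that the SD was 0.23 against 0.09 in untreated arrays. The difference of means was 0.06 (95% interval -0.17 to 0.29, adjusted p = 0.921 in limma), and whether the spreads differ was not tested. It rested on single arrays, at 0.0054 without rapamycin replicate 1, 0.0064 without rapamycin replicate 2, 0.12 without either of replicates 3 and 4, and 0.04 and 0.10 without untreated replicates 1 and 2. With quantile normalization over genes it was 0.01.

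Foxo4 is the factor gene of the family that lies on the X chromosome. It was at 6.01, 5.84, 6.23, 6.11 and 6.0 in untreated and at 6.01, 5.93, 6.12, 6.10 and 5.59 in rapamycin arrays. Rapamycin replicate 5 held the lowest value and the other rapamycin arrays lay inside the untreated range. The difference was -0.09 (95% interval -0.32 to 0.14, adjusted p = 0.876 in limma), and it was 0.00042 without rapamycin replicate 5. For comparison, the 899 X-linked genes tested had a median difference of 0.01. Foxo6, the remaining mammalian FOXO gene, best known from brain, lay at 4.64 ± 0.26 and 4.76 ± 0.09, near or below the array medians, with a difference of 0.12 (adjusted p = 0.815 in limma).

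The lymphocyte targets Klf2 and Il7r had the largest spread between arrays of a group among the 10 genes. Klf2, a transcription factor that keeps lymphocytes quiescent and controls their homing, was at 7.09, 6.93, 6.73, 6.40 and 6.61 in untreated arrays and at 7.25, 6.68, 6.67, 6.59 and 6.53 in rapamycin arrays. The highest array of either group was its replicate 1, and the other 4 rapamycin arrays lay between 6.53 and 6.68. The means were 6.75 ± 0.27 and 6.75 ± 0.29, a difference of -0.01 (95% interval -0.32 to 0.30, adjusted p = 0.994 in limma). Without rapamycin replicate 1 the difference was -0.13, and without untreated replicate 1 it was 0.08, so that its direction rested on single arrays. The SD within groups was larger than that of 95.1% of all genes.

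Il7r, which encodes the receptor chain for the lymphocyte survival factor IL-7, was at 3.77, 4.35, 3.94, 3.67 and 4.10 in untreated arrays and at 3.76, 4.02, 4.22, 3.69 and 3.38 in rapamycin arrays. These values are dim, around the lower quartiles of the arrays, which ran from 3.81 to 3.87, and the groups overlapped. The difference was -0.15 (95% interval -0.46 to 0.16, adjusted p = 0.828 in limma). It was -0.04 without rapamycin replicate 5, -0.06 without untreated replicate 2 and -0.25 without rapamycin replicate 3. Its spread exceeded that of 96.2% of all genes.

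The cell cycle targets Cdkn1b and Ccng2 had, with Foxo1, the smallest spread. Cdkn1b encodes p27, an inhibitor of cyclin-dependent kinases and among the first FOXO targets described. It was at 7.34, 7.30, 7.22, 7.10 and 7.17 in untreated and at 7.14, 7.30, 7.30, 7.27 and 7.18 in rapamycin arrays. All 5 rapamycin values fell inside the untreated range. The difference was 0.01 (95% interval -0.16 to 0.19, adjusted p = 0.985 in limma), and its sign turned in 5 of 19 alternatives. A smaller within-group SD was found in 7.7% of all genes, and for Foxo1 in 7.21%.

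Ccng2, an unusual cyclin made in cells that leave the cycle, was the 1 gene of the 10 whose groups did not overlap, as was the case for 2.06% of all genes. It was at 6.47, 6.61, 6.63, 6.61 and 6.6 in untreated arrays and at 6.65, 6.67, 6.76, 6.64 and 6.90 in rapamycin arrays. The gap between the groups was narrow, and untreated replicate 1 lay well below the other 4 untreated arrays. The means were 6.58 ± 0.06 and 6.73 ± 0.11, a difference of 0.14 (SE 0.08, 95% interval -0.04 to 0.32, adjusted p = 0.655 in limma), or 1.10-fold. It did not pass even without adjustment (unadjusted p = 0.109 in limma, which moderates the SD of a gene towards that of others of like intensity). Its relative Ccng1, a target of p53, had a difference of 0.18 (adjusted p = 0.429).

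**Figure D2:**
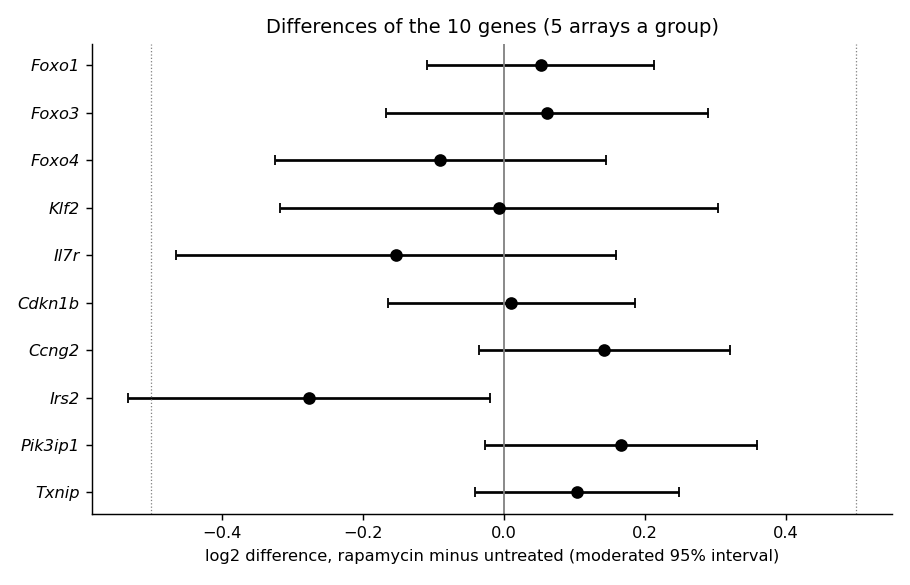
Log2 differences of the 10 genes, rapamycin minus untreated, with moderated 95% intervals from limma over 5 arrays a group. Dotted lines mark 0.5 in either direction; only the interval of Irs2, -0.53 to -0.02, leaves 0 out, and it is also the only one to cross a dotted line.

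The regulators of PI3K signalling among the targets lay on opposite sides of 0. Irs2 is an adaptor that couples the insulin and IGF-1 receptors, and in lymphocytes the IL-4 receptor, to PI3K. FOXO factors raise its transcription in liver, and mTOR complex 1 signalling restrains insulin receptor substrates. It was at 8.82, 8.96, 9.0, 9.36 and 9.34 in untreated arrays and at 8.76, 8.88, 8.98, 8.48 and 8.99 in rapamycin arrays. Untreated replicates 4 and 5 were above all others and rapamycin replicate 4 was below all others, while the remaining arrays of both groups were intermixed. The means were 9.10 ± 0.24 and 8.82 ± 0.21, a difference of -0.28 (SE 0.12, 95% interval -0.53 to -0.02). That is 0.826-fold, a size larger than in 95.1% of all genes. The unadjusted p was 0.0371 and the adjusted p 0.494 in limma. Without rapamycin replicate 4, the array that stands apart, the difference was -0.19.

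Pik3ip1 encodes a membrane protein that binds and inhibits the catalytic subunit of PI3K. It was at 5.16, 5.35, 5.45, 5.16 and 5.40 in untreated and at 5.51, 5.59, 5.29, 5.48 and 5.49 in rapamycin arrays. Rapamycin arrays lay above all untreated ones, except rapamycin replicate 3, which was inside the untreated range. The difference was 0.17 (SE 0.09, 95% interval -0.03 to 0.36, unadjusted p = 0.0866, adjusted p = 0.622 in limma), or 1.12-fold. These values stand only a little above the array medians.

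Txnip encodes a protein that binds thioredoxin and draws glucose transporters from the cell surface. It is raised by FOXO factors and, in answer to glucose, by the transcription factor pair MondoA and Mlx. It was at 11.64, 11.55, 11.76, 11.92 and 11.81 in untreated arrays and at 11.88, 11.91, 11.91, 11.80 and 11.71 in rapamycin arrays, well above the array medians on all 10. Untreated replicates 1 and 2 were the lowest, and untreated replicate 4 the highest. The difference was 0.10 (95% interval -0.04 to 0.25, adjusted p = 0.702 in limma), the narrowest interval of the 10 genes. It was 0.06 without untreated replicate 2 and 0.04 with quantile normalization over genes.

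**Figure D3:**
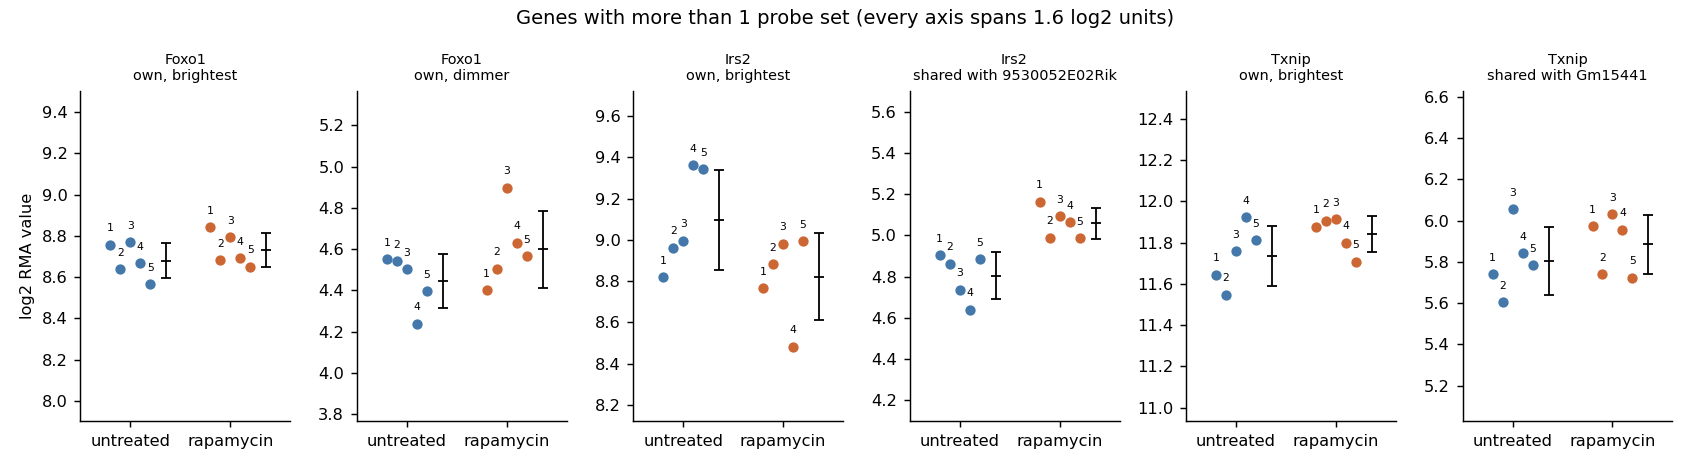
Log2 RMA values per array for Foxo1, Irs2 and Txnip on their brightest probe set and on the other probe set that names them. Untreated arrays are in blue, rapamycin arrays in orange, bars are mean ± SD of 5 arrays; the probe set shared by Irs2 and 9530052E02Rik is higher on all rapamycin arrays, while the brightest of Irs2 is not.

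For 3 of the genes the annotation names a further probe set. The dimmer one of Foxo1, below the array medians on all arrays, had means of 4.45 ± 0.13 without and 4.6 ± 0.19 with rapamycin, a difference of 0.15 (adjusted p = 0.734 in limma with every one of 41345 probe sets tested). A probe set shared by Txnip and Gm15441 differed by 0.08, in the same direction as that of Txnip alone. A probe set shared by Irs2 and 9530052E02Rik, which was dim and lay around the array medians, went against the much brighter one of Irs2 alone. It was at 4.90, 4.86, 4.74, 4.64 and 4.88 in untreated and at 5.16, 4.99, 5.09, 5.06 and 4.99 in rapamycin arrays, with no overlap. Its difference was 0.25 (95% interval 0.09 to 0.42), with an unadjusted p of 0.00682 and an adjusted p of 0.388 in limma over all probe sets. In that fit the brightest Irs2 probe set had an unadjusted p of 0.065, not 0.0371. The shared probe sets cannot be given to either gene.

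The consensus binding letters of FOXO factors, GTAAACA on either strand, were looked for in RefSeq promoter windows of assembly GRCm38.p6, from 250 bases before to 50 after each start. The table held 1 window for each of 9 of the 10 genes, and Txnip alone of these 9 held the letters. Among all 32851 windows 3.65% held them. A shorter core, TAAACA, which lies inside the first motif and was searched after that result was seen, was found in Txnip and in Cdkn1b, and in 13.4% of all windows. Both sequences are shown because they are the stretches of the 9 windows in which a match was found, with the longest match in capitals. They are written on the strand of the gene, 5′ to 3′, and only bases before the start are given.

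Txnip, chr3:96557796-96557882, plus strand, match beginning at -121 from the start: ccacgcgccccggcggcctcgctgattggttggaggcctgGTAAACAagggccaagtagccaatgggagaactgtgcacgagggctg
Cdkn1b, chr6:134920344-134920400, plus strand, match on the other strand, beginning at -17 from the start: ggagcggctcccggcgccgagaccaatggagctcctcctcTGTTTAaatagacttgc

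These matches describe letters, not bound sites, and the lack of a match in the other 7 windows says nothing of elements elsewhere. The values above for the genes with a match, Txnip at 0.10 and Cdkn1b at 0.01, lay inside the range of the genes without one, -0.28 to 0.17.

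No pair of the 10 genes passed a test for varying together between arrays of a group. Over the 10 arrays, after subtracting each group mean, 23 of 45 pairs correlated above 0. In exact two-sided permutation tests within groups 1 pair had an unadjusted p under 0.05 and 0 pairs an adjusted one, the smallest being 0.738 for Pearson's r and 0.928 for Spearman's rho over the 45 pairs. The pair with the smallest p was Foxo4 and Txnip, with r = 0.62 (exact p = 0.0435) and rho = 0.43 (exact p = 0.258), over 10 arrays. This relation rested on untreated replicate 2 and rapamycin replicate 5, without which r was 0.04. Foxo1 and Klf2 had r = 0.61 (exact p = 0.0825) and rho = 0.56 (exact p = 0.118), with r = 0.48 without the 2 arrays farthest from the median of Foxo1. Ccng2 and Irs2 had r = 0.63 (exact p = 0.0627) and rho = 0.55 (exact p = 0.125), with r = 0.53 without the 2 arrays farthest from the median of Ccng2. Foxo1 with Il7r, another textbook pair, had r = 0.02 (exact p = 0.956).

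Leaving out an array brought pairs past the test in 2 of 10 cases. The adjustment covered the 45 pairs of a single case, not all 10 cases together. Without rapamycin replicate 1, Klf2 and Cdkn1b had r = 0.97 (exact p = 3.47e-04, adjusted p = 0.0156), against 0.26 over all arrays. Without rapamycin replicate 4, Klf2 and Irs2 had r = -0.84 (exact p = 3.47e-04, adjusted p = 0.0156), against -0.54 over all arrays. In both cases the p is the smallest that 9 arrays allow. The array left out for Klf2 and Cdkn1b held the highest Klf2 value. With no array left out, this pair had r = 0.999 in untreated but -0.63 in rapamycin arrays. Klf2 and Irs2 had r = -0.93 in untreated and -0.12 in rapamycin arrays.

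**Figure D4:**
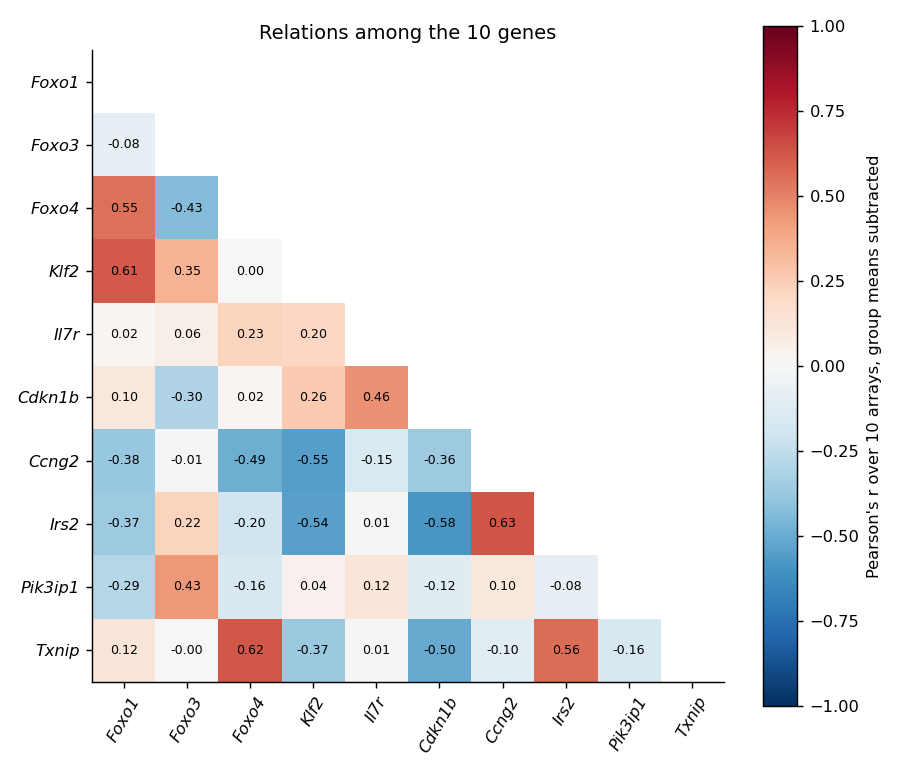
Pearson's r for each of the 45 pairs of genes over 10 arrays after subtracting group means, red for positive and blue for negative. The values run from -0.58 for Cdkn1b and Irs2 to 0.63 for Ccng2 and Irs2, and 0 pairs passed the test after adjustment.

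The genes most like each member over the 10 arrays, by the same r among 10375 other genes (10376 for Il7r, itself below the median) with a mean above the median and no predicted-gene name, are given as a description. Those nearest to Irs2 were Tmem43, a gene of the nuclear envelope, at r = 0.99, and the lysosomal chloride exchanger gene Clcn7 at 0.95. For Ccng2 they were the transcription factor gene Atf2 (0.95) and Ginm1 (0.93), and for Foxo3 the Golgi tether gene Uso1 (0.95) and Fem1a (0.94). Foxo1 was nearest to Faap20 (0.93) and the histone methyltransferase gene Setd1a (0.91), Klf2 to Polr3e (0.93) and Nfrkb (0.92), and Txnip to the adenosine kinase gene Adk (0.92) and Unk (0.91). Foxo4 was nearest to Olfr455 (0.90) and Uchl1 (0.89), Cdkn1b to Med19 (0.92) and Foxi2 (0.90), Il7r to Parp11 (0.92) and Cwc27 (0.91), and Pik3ip1 to Gmfb (0.92) and Rdh13 (0.91). These genes were picked for their likeness among many, so no p is given. None of the 20 passed the test between groups in limma, the smallest adjusted p being 0.526, for Gmfb.

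The wider pathway around the FOXO factors was read from 10 lists holding 155 measured genes of 167 listed. None of the 155 passed at an adjusted p under 0.05 over all genes in limma. Without adjustment 17 were higher and 7 lower at a p under 0.05, beside 6.13% and 3.26% of all genes, and the median difference was 0.01, as over all genes. Of the 29 measured genes of the PI3K to AKT branch above FOXO, 1 passed without adjustment, the regulatory subunit gene Pik3r2, with a difference of 0.24 (adjusted p = 0.476). Pik3r5, a further regulatory subunit gene, and the B cell adaptor gene Pik3ap1 had differences of 0.31 and -0.22. Among 23 regulators of FOXO protein, the deacetylase gene Sirt2 was at 0.18, the kinase gene Ikbkb at -0.25 and Cdk2, whose kinase phosphorylates Foxo1, at -0.43 (unadjusted p = 0.00598, adjusted p = 0.277 in limma).

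Of 11 other reported FOXO targets in lymphocytes, 1 was higher and 2 were lower without adjustment, beside 6.13% and 3.26% of all genes. Groups without overlap, noted below for single genes, were found for 2.06% of all genes. Ctla4, an inhibitory receptor gene, was at 7.78 ± 0.10 and 8.14 ± 0.23, with no overlap (difference 0.37, adjusted p = 0.22 in limma). S1pr1, the receptor that guides lymphocytes out of tissues and a known target of Klf2, was at 5.83 ± 0.38 and 5.39 ± 0.11 (difference -0.44, adjusted p = 0.305), and Bach2, a repressor of the plasma cell program, at 6.16 ± 0.16 and 5.76 ± 0.17 (difference -0.39, adjusted p = 0.175). The pro-apoptotic target Bcl2l11 had a difference of 0.04.

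Among 19 measured targets of cell cycle and stress, 3 were higher and 1 was lower without adjustment, beside 6.13% and 3.26% of all genes. Ccnd2, the cyclin D2 gene, which FOXO factors are known to repress, had means of 9.29 ± 0.25 and 9.83 ± 0.12, without overlap between untreated and rapamycin arrays, and its difference of 0.54 had an adjusted p of 0.063 in limma. Ddit4, an inhibitor of mTOR complex 1, had a difference of 0.57 (adjusted p = 0.147) and Klf6 one of -0.32 (adjusted p = 0.212). The 22 targets of metabolism and autophagy had a median of 0.01, with Atg14 at 0.26, the autophagy receptor gene Sqstm1 at -0.25 and Ppargc1a, below the lower quartile of the arrays, at -0.19.

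The relatives and partners of single members completed the lists. In the Txnip axis of 13 genes, Mlxip, which encodes MondoA, was at 8.09 ± 0.03 and 8.39 ± 0.22 (difference 0.30, adjusted p = 0.293 in limma), the glucose transporter genes Slc2a3 and Slc2a1 differed by 0.35 and -0.12, and the paralog Arrdc4, below the array medians, by -0.07. Of 14 other Klf genes, Klf3 was at 5.62 ± 0.20 and 5.19 ± 0.13 without overlap (difference -0.44, adjusted p = 0.127), Klf9 differed by 0.26 and Klf17 by -0.15. Of 12 relatives of Cdkn1b and Ccng2, 2 were higher without adjustment, beside 6.13% of all genes. These were Ccng1 and Ccne1, the latter by 0.36, and Cdk6 differed by 0.36. The median of these 12, 0.10, was the largest among the 9 pathway lists with several genes.

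**Figure D5:**
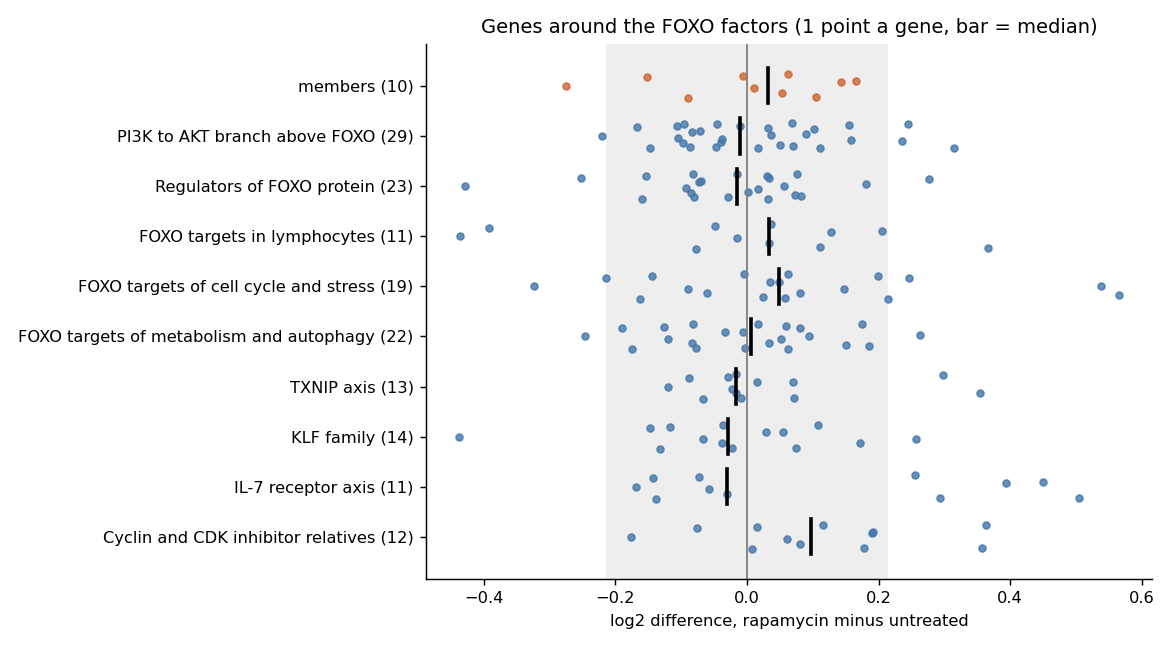
Log2 differences, rapamycin minus untreated, of the 10 genes (orange) and of 9 lists around them (blue), 1 point a gene, with the number of measured genes in brackets. Black bars are medians and the grey band, 0.21 in either direction, holds most of all genes; the medians lie between -0.03 and 0.10.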

How the data were processed

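RNA of sorted bone marrow plasma cells was measured on 10 arrays, 5 a group. The submitters' processing notes name RMA, without a version, for the deposited log2 values. RMA subtracts background, quantile-normalizes the arrays and combines the probes of a set. Quantile normalization hides a shift shared by all transcripts. The table's 41345 probe sets took gene names from GEO's platform annotation (23521 with 1 symbol, 1820 with several, 16004 unnamed here), of which 23328 matched NCBI's gene table of GRCm38.p6. A second deposited table, of 12280 filtered rows with equal values (tolerance 1e-06), held 5 of the 10 genes and served as an alternative.

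Differences were tested with limma 3.58.1 in R 4.3.3 (lmFit, eBayes with intensity trend, two-sided, no covariate, no filter), adjusted over 22180 genes, each on the probe set of the highest mean. The fit was tested on simulated data. Every adjusted p of a gene is limma's. Pairs were tested by exact permutation of arrays within groups (14400 arrangements).

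The 10 genes and the lists were chosen with earlier results of these data known. From each pathway list the genes past the test were named or, with none, the 3 of smallest p. Likeness was read among genes without Gm or Rik names. Marker genes were named from a fixed set of defining genes for each cell type and of sex-linked transcripts, given in part. Genes named beyond that, namely Bcl2l11, Arrdc4, Socs2, Socs3, Cish and Stat5b, were picked with their values in view. The number of arrays limits precision. Plots: matplotlib 3.10.9, Python 3.11.15.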

Additional observations from a re-analysis of the deposited data

Results flagged for a closer look

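Among 26 sets of 5 arrays, 13 probe sets in 2 groups, 2 held an array whose gap to the nearest other array was over 0.71 of the whole range of its group. Such gaps arise by chance in about 1 of 20 groups. Klf2 was at 7.25 in rapamycin replicate 1, a gap of 0.791 of the range, with the other 4 rapamycin arrays between 6.53 and 6.68. Ccng2 was at 6.47 in untreated replicate 1, a gap of 0.86 of the range, with the other 4 untreated arrays between 6.6 and 6.63. Whether these arrays differ in cell makeup was not tested.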

How the results depend on the processing

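Over 20 alternative fits, which gave 194 values for the 10 genes, 0 genes passed the adjusted threshold of 0.05, and 0 passed 0.1 in the main setting. The sign was kept in 181 values and turned in 13, in genes with differences near 0. Klf2 turned to 0.012 with array weights and ranged from -0.13 to 0.079 when single arrays were left out. Cdkn1b turned to -0.030 with quantile normalization over genes and ranged from -0.020 to 0.039, and Foxo4 from -0.14 to 0.00042, without single arrays. The difference of Irs2 ran from -0.34 to -0.19 and its smallest adjusted p was 0.335, without untreated replicate 1. That of Ccng2 ran from 0.10 to 0.16. The number of correlated pairs was 0, and 0 to 1 without single arrays, with adjustment inside each of these cases only.

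Counts over all genes, 28 higher and 6 lower, moved more. Of the sex-linked transcripts measured, 1 was among the higher and 3 were among the lower. With the replicate block 14 genes were higher and 7 lower, and no call on the 10 genes changed. The labels do not say whether same-numbered arrays pair. Deviations of same-numbered arrays correlated at -0.07 to 0.05, which cannot show that no pairing exists. With genes above the median only there were 57 and 13, with the genes of the filtered table there were 71 and 36, and at an adjusted p under 0.1 there were 68 and 24. Array weights gave 12 lower, quantile normalization over genes 13 lower, and a test of every probe set 8 higher. Leaving out single arrays gave 15 to 30 higher, with 15 both without untreated replicate 3 and without rapamycin replicate 1, and 4 to 9 lower. No scaling moved the median of all genes by more than 0.02. A planned comparison of the FOXO proteins was not run, because their sequences were not available here.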

Other observations

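Of 11 measured genes in the signalling axis of the IL-7 receptor, 1 of 10 lists and described here with its values in view, 5 were higher and 0 lower without adjustment (p under 0.05), beside 6.13% and 3.26% of all genes, although the median of the list was -0.03 and 0 passed in limma over all genes. Bcl2, the survival gene that IL-7 signalling sustains, had means of 9.97 ± 0.28 and 10.47 ± 0.14, without overlap between untreated and rapamycin arrays, and its difference of 0.50 had an adjusted p of 0.0929. Crlf2, the receptor chain for TSLP that pairs with Il7r, was at 7.22 ± 0.05 and 7.52 ± 0.11 without overlap (difference 0.29, adjusted p = 0.208 in limma). Over all genes 2.06% had groups without overlap. The feedback inhibitor genes Socs1 and Socs2 differed by 0.39 and 0.45 and Stat5b, a transcription factor gene of the axis, by 0.26, all with adjusted p of at least 0.217. Cish and Socs3, further feedback genes of cytokine receptors, went the other way, with -0.14 and -0.17. Il7r lay around the lower quartile of the arrays throughout. Sex and treatment cannot be told apart in these values. Beside them, 5 of 14 neutrophil markers were higher and 0 lower without adjustment (median 0.16, with 13 of 14 above 0), as were 3 of 10 plasma cell markers. Of 11 mature B cell markers 2 were higher and 3 lower (median -0.09). The part of these markers in the values of the axis was not tested.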
